A study of Homo sapiens with 8 samples.

Results

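Snail, the zinc finger repressor encoded by SNAI1, works through proteins that it recruits and is itself short-lived. The genes described here encode 10 of those proteins, taken from a list of corepressors recruited by Snail and of proteins that set its stability. All 10 genes were measured, out of 19775 genes on the array, by 27 of the 54675 probe sets. The list was drawn up by function and no measured value entered its rule, although earlier results of these data were known when it was made. Each gene was read by its brightest probe set, ranked on the average of 8 arrays among those annotated to that gene alone, and its other probe sets served as a check. Levels are log2 expression values from RMA, so a difference of 1 is a 2-fold difference, and the brightness of different probe sets does not compare the abundance of different genes.

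The 8 arrays fell into 4 groups of 2, all of established lines from human colorectal adenocarcinomas. HT29 parental cells were grown in DMEM with 10% fetal bovine serum. HT29 cells labelled as first spheres were grown in DMEM-F12 with N2 Plus Supplement and with EGF and bFGF, both at 10 ng/ml, so medium and sphere form cannot be told apart. SW480 stable lines, carrying a vector control or labelled as expressing Snail, were grown in DMEM-high glucose with 10% serum; the labels do not say whether each line was 1 clone, nor which promoter drove Snail. Whether partner arrays were separate cultures is not in the labels, so the p-values measure only how far these arrays differ, and that may be technical.

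On its target promoters Snail binds through its zinc fingers and uses its N-terminal SNAG domain to dock corepressors. The histone demethylase LSD1, encoded by KDM1A, acts with its scaffold CoREST, encoded by RCOR1, and removes methyl groups from histone H3 lysine 4. HDAC1 and HDAC2 deacetylate histones within the SIN3A and CoREST complexes, and EZH2 with SUZ12, in Polycomb repressive complex 2 (PRC2), methylates histone H3 lysine 27. The kinase GSK3B phosphorylates Snail, which marks it for the ubiquitin ligase receptor beta-TrCP, encoded by BTRC, and the F-box protein encoded by FBXL14 directs Snail to the proteasome. E-cadherin, CDH1, is the best known gene that Snail represses in epithelial cells.

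The RefSeq promoter table (GRCh38.p14) held windows for 9 members, all but BTRC. Each of the 12 windows was read from 250 bases before the annotated start to 10 bases after it, and searched on both strands for the E2F words TTTGGCGC and TTTCCCGC and for the word CCAAT, which do not overlap each other here. An E2F word was found for 3 members, SIN3A, EZH2 and SUZ12, in 3 of 12 windows, and in 706 of 35116 windows (2.01%) over all genes. CCAAT was found for 7 members, in 8 of 12 windows, and in 32.7% of all windows. Of the 30 cell division genes used below, 21 had windows in the table, and of their 27 windows 6 held an E2F word and 24 held CCAAT. The 3 windows with an E2F word are shown because their genes were also lower in spheres, a choice made after the values were seen. HDAC1, HDAC2 and FBXL14 were lower in spheres too, and their windows held no E2F word. The part of E2F factors in these falls was not tested. Capitals mark the E2F and CCAAT words, on either strand.
EZH2, chr7:148884282-148884541, minus strand: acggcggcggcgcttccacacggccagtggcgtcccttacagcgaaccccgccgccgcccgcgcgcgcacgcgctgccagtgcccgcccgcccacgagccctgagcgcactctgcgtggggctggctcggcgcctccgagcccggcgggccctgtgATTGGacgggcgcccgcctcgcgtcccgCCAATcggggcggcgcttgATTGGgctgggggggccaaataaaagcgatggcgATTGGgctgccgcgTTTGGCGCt
SUZ12, chr17:31936757-31937016, plus strand: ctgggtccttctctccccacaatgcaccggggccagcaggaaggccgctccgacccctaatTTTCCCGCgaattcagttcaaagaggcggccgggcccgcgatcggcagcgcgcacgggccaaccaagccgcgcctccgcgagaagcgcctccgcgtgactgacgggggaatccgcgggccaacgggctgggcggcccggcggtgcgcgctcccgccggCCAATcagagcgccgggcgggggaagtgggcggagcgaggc
SIN3A, chr15:75451681-75451940, minus strand: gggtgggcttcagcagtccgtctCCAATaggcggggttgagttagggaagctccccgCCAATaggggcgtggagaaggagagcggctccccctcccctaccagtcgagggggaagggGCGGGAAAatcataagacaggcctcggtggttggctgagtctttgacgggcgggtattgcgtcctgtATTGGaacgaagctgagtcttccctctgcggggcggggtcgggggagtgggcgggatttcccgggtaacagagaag
EZH2 and SIN3A each have a second annotated start, whose window held no E2F word. A match of letters is a description of the sequence and does not show that a factor binds there.

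Of 10 colon epithelial markers 8 read above every array's median on all 8 arrays, while KRT20 did not in SW480 and CDH17 did so in spheres alone. Of 14 measured markers of fibroblasts, endothelium, blood and leukocytes, 3 (COL1A1, PECAM1 and HBB) were above every median, and the mean of the 14 lay at 5.504 and 5.47 in parental cells, 6.01 and 5.82 in spheres, and 5.29 to 5.37 in SW480. LUM, a fibroblast matrix gene, averaged 4.65 in parental cells and 8.43 in spheres, and COL3A1, CDH5, KDR and PTPRC lay below every median on all arrays. Their part in the results below was not tested. Partner arrays correlated at 0.991 in parental HT29 and at 0.995 in the other 3 groups, and the parental pair had 200 genes at least 2-fold apart, against 10 to 19 in the others. No member was 2-fold apart within a pair; the widest gap was that of EZH2 in parental cells, 0.79 log2. The 3' to 5' difference of the GAPDH control probe sets, a measure of RNA integrity, ran from 0.06 to 0.24 log2 over the 8 arrays. That of ACTB was 0.66 and 0.59 in parental cells, 0.72 and 0.95 in spheres, and 0.12 to 0.22 in SW480. The BioC spike-in control read 8.79 and 8.87 in parental cells and 10.03 to 10.62 on the other 6 arrays, and the part of either control in the results was not tested. SNAI1 itself stood at 5.87 and 6.15 in parental cells and at 6.93 and 7.21 in spheres. It stood at 6.36 and 6.34 in vector cells and 6.32 and 6.38 on the arrays labelled Snail (limma, adjusted p = 0.99). The label of that line is thus not borne out by the 1 probe set that reads SNAI1. Whether that probe set reads the introduced construct is not in the labels and was not tested. CDH1 was higher on the arrays labelled Snail, by 0.76 ± 0.17 log2 (limma, adjusted p = 0.013), with its dimmer probe set at 0.28. Directions in SW480 rest on the label. In such bulk samples fewer cells of a type and less RNA per cell cannot be told apart.

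In HT29 spheres 5 of the 7 corepressor members were lower at an adjusted p under 0.05 (limma, brightest probe sets), beside 19.0% of all genes. EZH2 fell 3.04-fold, HDAC1 2.09-fold, SIN3A 1.89-fold, HDAC2 1.74-fold and SUZ12 1.49-fold, and among the stability genes FBXL14 fell 1.599-fold. With the mean of its probe sets the change of SUZ12 was -0.08 log2 and did not pass. The LSD1 and CoREST pair went the other way, RCOR1 rising 1.55-fold and KDM1A 1.31-fold. Neither rise passed in every setting: RCOR1 did not with the mean of its probe sets, nor KDM1A with HT29 fitted alone. GSK3B and BTRC did not pass the test. With the brightest probe sets only HDAC2 and GSK3B passed in SW480 cells labelled Snail, both higher, by 1.57-fold and 1.74-fold. There the dimmer probe set of HDAC2 fell, by 0.85 log2, and 2 dimmer probe sets of SIN3A rose.

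Thus 8 of 10 members passed in spheres at an adjusted p under 0.05 (limma, adjusted over all 19775 genes), 6 of them lower and 2 higher. Over all genes 31.4% passed, 19.0% lower and 12.4% higher. These shares include dim genes, and no member was among the dimmest 40%. Without that 40%, 6014 genes passed in spheres, against 6200 of all genes, and 3425 in SW480, against 3213. The shares among brighter genes were thus higher than those over all genes. The median change of the 10 members was -0.63 log2, against 0.04 over all genes, and the arrays of the groups did not overlap for 9 members, as for 62.9% of all genes. In SW480 2 of 10 passed, both higher, where 16.2% of all genes passed, 8.91% higher and 7.34% lower. The median change there was 0.03 log2 for the members and 0.01 for all genes, and the arrays did not overlap for 6 members, as for 60.4% of all genes; a share near the background is not a result about the members. The count in spheres was 5 without sphere array 1 and 6 to 8 without any other HT29 array. The count in SW480 was 1 without vector array 1 or without Snail array 2, and 2 without either of the others.

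**Figure D1:**
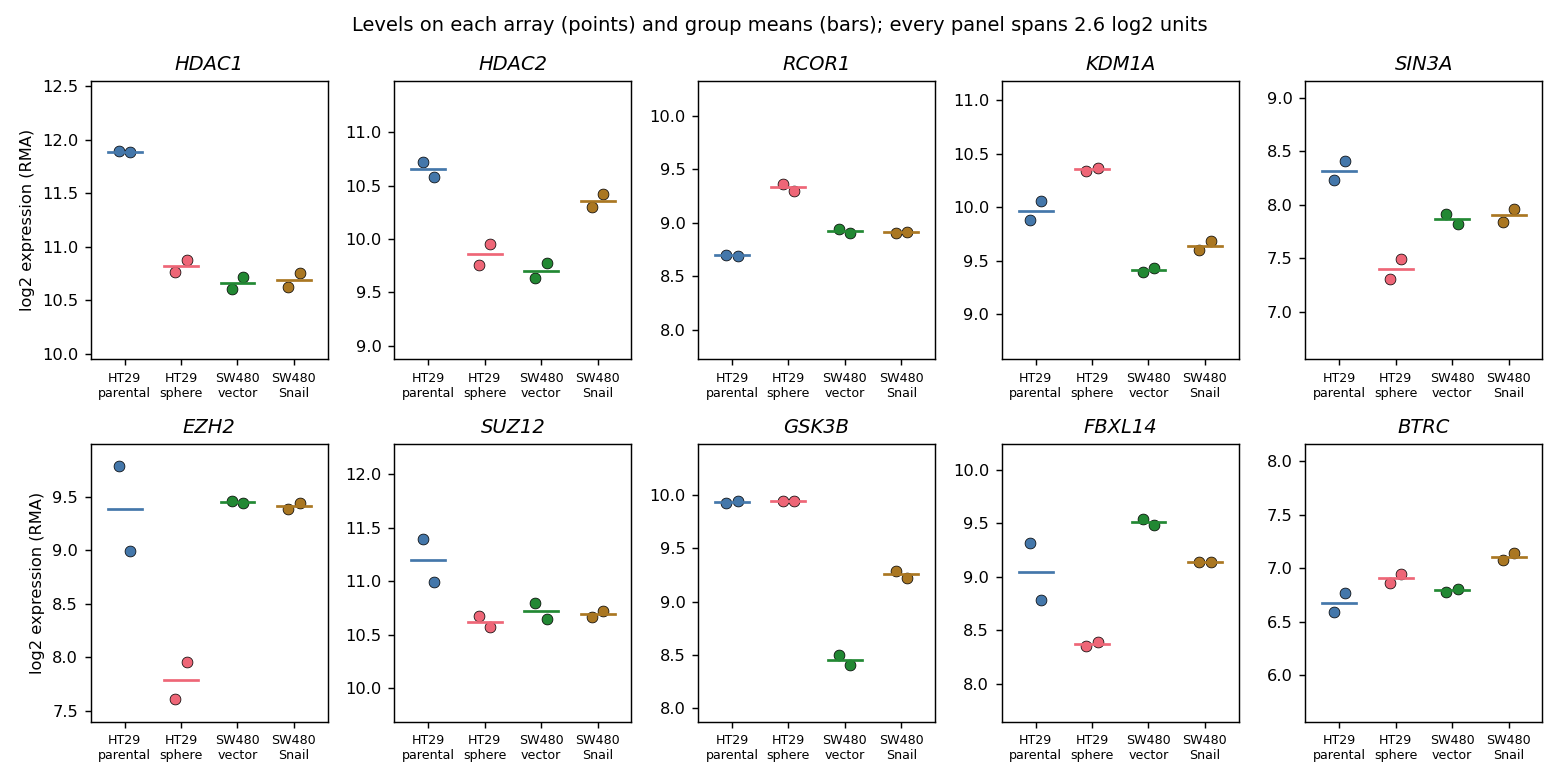
Levels of the 10 genes on the log2 scale (vertical axis), with 1 point for each array, a bar at each group mean and the 4 groups along the horizontal axis; every panel spans the same number of log2 units. EZH2 was the most widely spread gene, from 7.61 on sphere array 1 to 9.79 on parental array 1, while BTRC stayed between 6.59 and 7.14.

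**Figure D2:**
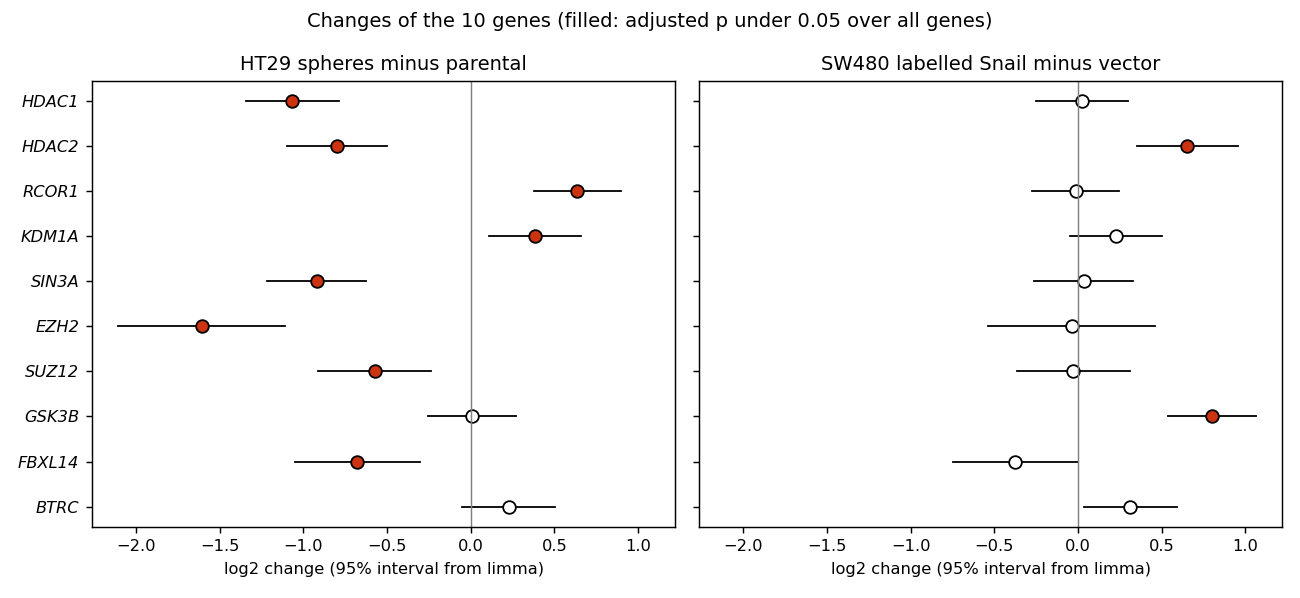
Log2 changes (horizontal axis) of the 10 genes in HT29 spheres against parental cells (left) and in SW480 cells labelled Snail against vector (right), with 95% intervals from limma; filled points passed at an adjusted p under 0.05 over all genes. On the left 8 points are filled, 6 below 0, and on the right 2, HDAC2 and GSK3B, both above 0.

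With the brightest probe sets, the change of HDAC1 and that of HDAC2 in spheres each differed from the change in SW480. The HT29 comparison is of sphere culture and the SW480 comparison of a line labelled Snail, so cell line and manipulation cannot be told apart in any difference between the 2 comparisons. HDAC1 stood at 11.90 and 11.88 in parental cells, 10.77 and 10.88 in spheres, 10.60 and 10.72 in vector cells, and 10.62 and 10.75 on the arrays labelled Snail. Parental HT29 cells were thus alone at the top, and the SW480 groups overlapped each other just below the spheres. The fall in spheres was 1.07 ± 0.12 log2 (SE, adjusted p = 0.00011), while the SW480 groups differed by 0.02 ± 0.12 (adjusted p = 0.93), with a 95% interval from -0.25 to 0.30. The test of the difference between these changes gave -1.09 ± 0.18 (adjusted p = 0.0012).

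HDAC2, the close paralog of HDAC1 in the same complexes, read 10.72 and 10.58 in parental cells, 9.75 and 9.96 in spheres, 9.63 and 9.78 in vector cells, and 10.30 and 10.42 on the arrays labelled Snail. It therefore fell in spheres, by 0.80 ± 0.13 log2 (adjusted p = 0.0012), and rose in SW480, by 0.65 ± 0.13 (adjusted p = 0.0090), and the groups did not overlap in either line. These changes differed by -1.45 ± 0.19 log2 (adjusted p = 0.00036), the lowest adjusted p among the members in that test. The rise in SW480 is less firm than the fall. Without vector array 1 it was 0.58 (adjusted p = 0.079) and without Snail array 2 it was 0.59 (adjusted p = 0.080). A second, dimmer probe set of HDAC2, with a mean of 6.39, fell by 0.89 in spheres like the first but fell by 0.85 ± 0.22 on the arrays labelled Snail (adjusted p = 0.024), against the first, and the mean of both gave -0.10 (adjusted p = 0.75).

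Both genes of the LSD1 and CoREST pair were highest in spheres. RCOR1 stood at 8.70 and 8.69 in parental cells, 9.37 and 9.30 in spheres, 8.95 and 8.91 in vector cells, and 8.91 and 8.92 on the arrays labelled Snail. The spheres lay above all other arrays and the parental cells below them, while the SW480 groups overlapped. RCOR1 rose in spheres by 0.64 ± 0.12 log2 (adjusted p = 0.0020), changed by -0.01 ± 0.12 in SW480 (adjusted p = 0.96), and the changes differed by 0.65 ± 0.17 (adjusted p = 0.014). That difference was lost without sphere array 1 (0.62, adjusted p = 0.051) or vector array 1 (0.63, adjusted p = 0.055). A dimmer probe set of RCOR1 gave 0.01 in spheres, and the mean of both gave 0.32 (adjusted p = 0.057).

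KDM1A, the demethylase itself, read 9.88 and 10.05 in parental cells, 10.34 and 10.37 in spheres, 9.39 and 9.43 in vector cells, and 9.60 and 9.68 on the arrays labelled Snail. No neighbouring groups in that order overlapped, and both HT29 groups lay above both SW480 groups. The rise in spheres was 0.38 ± 0.12 log2 (adjusted p = 0.037), the least firm of the 8 calls. It was lost with HT29 fitted alone (adjusted p = 0.10), with array weights (adjusted p = 0.069), and without parental array 1 (0.30, adjusted p = 0.12), sphere array 1 (0.40, adjusted p = 0.11) or sphere array 2 (0.37, adjusted p = 0.12). In SW480 KDM1A was 0.23 ± 0.12 higher, which did not pass (adjusted p = 0.25), and the test of the difference between the comparisons gave 0.16 ± 0.17 (adjusted p = 0.57).

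With the brightest probe sets, none of the other measured genes of this complex rose in spheres. Of 8 further LSD1-CoREST genes 5 fell in spheres, 0 rose and 3 did not pass, with a median of -0.70 log2. Over all genes 19.0% were lower and 12.4% higher in spheres, and 7.34% lower and 8.91% higher in SW480, and the counts of every list below stand against these shares. HMG20B, a DNA-binding subunit, fell by 1.02 ± 0.14 (adjusted p = 0.00027), with dimmer probe sets at -0.75 and -0.11. RCOR3, a paralog of RCOR1, fell by 0.71 ± 0.14, although its 2 dimmer probe sets gave -0.19 and 0.36. In SW480 1 of the 8, the zinc finger protein gene ZMYM2, rose (0.63 ± 0.14, limma, adjusted p = 0.011). Its 6 dimmer probe sets ran from -0.11 to 0.60 there, and from -1.03 to 0.49 in spheres. The other 7 did not pass in SW480, among them PHF21A, a reader of unmethylated H3 lysine 4 (0.47 ± 0.15, limma, adjusted p = 0.054). The 3 dimmer probe sets of PHF21A ran from -0.17 to 0.64 in SW480.

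SIN3A, the scaffold that holds HDAC1 and HDAC2, stood at 8.23 and 8.41 in parental cells, 7.31 and 7.49 in spheres, 7.91 and 7.82 in vector cells, and 7.84 and 7.96 on the arrays labelled Snail. Spheres were lowest and parental cells highest, with the SW480 groups overlapping between them. It fell in spheres by 0.92 ± 0.13 log2 (adjusted p = 0.00043), and 3 of its 4 probe sets fell, the 4th being the dimmest. In SW480 the probe sets of SIN3A disagreed: the brightest gave 0.04 ± 0.13 (adjusted p = 0.90), the second 1.52 ± 0.14 (adjusted p = 0.00012) and the third 0.49 ± 0.14 (adjusted p = 0.045). On the second, the values were 5.79 and 5.89 in vector cells and 7.36 and 7.36 on the arrays labelled Snail, so whether SIN3A is called higher in that line rests on the probe set used. The mean of its 4 probe sets gave 0.51 there (adjusted p = 0.016). The change of the brightest probe set differed between the comparisons (-0.95 ± 0.19, adjusted p = 0.0038).

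Of 13 other measured SIN3 complex genes 3 fell in spheres, 0 rose and 10 did not pass, with a median of 0.02 log2, so the count of falls was near the 19.0% of all genes. RBBP4, a histone-binding subunit shared with NuRD and PRC2, fell by 1.64 ± 0.13 (adjusted p = 8.9e-06), with its 5 dimmer probe sets between -1.22 and 0.16. SUDS3, another subunit, fell by 1.35 ± 0.15. In SW480 only SIN3B, the paralog of SIN3A, passed, falling by 0.53 ± 0.14 (adjusted p = 0.026), with 2 dimmer probe sets at -0.06 and 0.04; KDM5A, an H3 lysine 4 demethylase, gave 0.37 (adjusted p = 0.098). A further list held NuRD genes, whose products are partners of HDAC1 and HDAC2, and the other class I deacetylases HDAC3 and HDAC8. Of its 11 genes 5 fell in spheres, 0 rose and 6 did not pass. HDAC8 fell by 1.62 ± 0.20, with 2 dimmer probe sets at -0.39 and 0.03. MTA1 fell by 1.14 ± 0.12, with its other probe set at -1.25. In SW480 4 of the 11 rose and 1 fell: MBD2, which binds methylated DNA, rose by 0.73 ± 0.14 (adjusted p = 0.0067), with 3 dimmer probe sets from -0.36 to 0.24, and CHD3, a remodelling ATPase, fell by 0.86 ± 0.13 (adjusted p = 0.0022).

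The Polycomb pair fell together in spheres. EZH2, the catalytic subunit, read 9.79 and 8.998 in parental cells, 7.61 and 7.96 in spheres, 9.46 and 9.44 in vector cells, and 9.39 and 9.44 on the arrays labelled Snail. The spheres lay more than 1 log2 below every other array, and the SW480 arrays fell between the 2 parental values. EZH2 fell by 1.61 ± 0.22 log2 (adjusted p = 0.00035), and only 3.53% of all genes changed more in spheres. The change was -1.21 without parental array 1 and -2.0002 without parental array 2. The SW480 groups differed by -0.04 ± 0.22 (adjusted p = 0.94), and the changes in the 2 comparisons differed by -1.57 ± 0.32 (adjusted p = 0.0043). EZH2 was read by 1 probe set, as were HDAC1 and KDM1A.

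SUZ12, which holds the complex together, stood at 11.40 and 10.998 in parental cells, 10.67 and 10.57 in spheres, 10.80 and 10.65 in vector cells, and 10.66 and 10.72 on the arrays labelled Snail. Parental cells were above all others, and the spheres overlapped the arrays labelled Snail, which overlapped the vector arrays. The fall in spheres, 0.57 ± 0.15 log2 (adjusted p = 0.015), was lost without parental array 1 (-0.37, adjusted p = 0.076), sphere array 1 (-0.62, adjusted p = 0.052) or sphere array 2 (-0.52, adjusted p = 0.084). Its 2 other probe sets averaged 4.06 and 3.33, below every array's median, and did not pass (0.29 and 0.04); the mean of all 3 gave -0.08 (adjusted p = 0.66). The difference between the comparisons, -0.55 ± 0.21, did not pass (adjusted p = 0.088), but did with a trended, robust variance model (adjusted p = 0.031) and without parental array 2 (-0.75, adjusted p = 0.015), and was -0.34 without parental array 1. SUZ12 has a near-identical pseudogene, SUZ12P1, and how far the probe set used separates them was not tested.

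Among 8 other PRC2 genes 3 fell in spheres, 1 rose and 4 did not pass, with a median of -0.31 log2. PHF1, an accessory subunit, rose by 1.13 ± 0.16 (adjusted p = 0.00035), while its relative MTF2 fell by 0.60 ± 0.13 (adjusted p = 0.0043). EED, the third core subunit, changed by -0.08 ± 0.19 with the probe set used (adjusted p = 0.79) and by 1.01 with the other. In SW480 PHF19, a further accessory subunit, fell by 0.96 ± 0.15 (adjusted p = 0.0024) and the other 7 did not pass. Of 14 other corepressors and chromatin partners of Snail, 5 fell in spheres, 0 rose and 9 did not pass: PARP1, which attaches ADP-ribose to proteins at damaged DNA, fell by 1.72 ± 0.13, and DNMT1, the maintenance DNA methyltransferase, fell by 1.93 ± 0.18. In SW480 2 fell, 0 rose and 12 did not pass; the falls were in LOXL2, a lysyl oxidase (-0.92 ± 0.18, adjusted p = 0.0081), and EHMT2, an H3 lysine 9 methyltransferase (-0.53 ± 0.13, adjusted p = 0.024).

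Genes of cell division were also lower in spheres. All 30 genes of the proliferation list fell in spheres, with a median of -1.61 log2 and a range from -2.87 (E2F8) to -1.02; TOP2A, a DNA topoisomerase used in chromosome segregation, fell by 2.24 ± 0.13. The mean level of the 30 genes was 10.24 and 9.79 on the parental arrays and 8.17 and 8.40 on the sphere arrays. Of the 6 members that fell, all but SIN3A were higher on parental array 1 than on parental array 2. All but SUZ12 were lower on sphere array 1 than on sphere array 2. Some of these gaps were small, 0.015 log2 for HDAC1 in parental cells and 0.034 for FBXL14 in spheres. How many of all genes share that order was not counted, so it is not a result about the members. In SW480 the mean of the 30 genes lay between 10.52 and 10.60 on all 4 arrays. There 1 of the 30 genes rose (MCM6, a subunit of the replicative helicase, 0.76 ± 0.16). Another 2 fell, among them RRM2, a ribonucleotide reductase subunit (-0.58 ± 0.15), and 27 did not pass. The other probe sets of MCM6 and RRM2 gave 0.19 and -0.05 in SW480. The part of proliferation in the falls of EZH2, SUZ12, SIN3A, HDAC1, HDAC2 and FBXL14 was not tested.

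The genes that set the stability of Snail showed no common direction. GSK3B, whose product phosphorylates Snail, read 9.92 and 9.94 in parental cells, 9.94 and 9.94 in spheres, 8.50 and 8.41 in vector cells, and 9.28 and 9.22 on the arrays labelled Snail. The HT29 groups overlapped at the top, and the arrays labelled Snail lay between them and the vector cells. In SW480 it rose by 0.80 ± 0.12 log2 (adjusted p = 0.0016), and this call held without any 1 of the 4 SW480 arrays. All 5 probe sets of GSK3B were higher there, from 0.21 to 0.96, and 3 of them passed.

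In spheres GSK3B changed by 0.01 ± 0.12 with the brightest probe set (adjusted p = 0.98; 95% interval -0.26 to 0.27), but its next probe sets moved in opposite directions. The second, at 8.82 and 8.78 in parental cells and 9.46 and 9.66 in spheres, rose by 0.76 ± 0.13. The third, at 8.57 and 8.53 in parental cells and 7.35 and 7.65 in spheres, fell by 1.05 ± 0.14 (adjusted p = 0.00025). The groups did not overlap on either, so a single level of GSK3B does not describe the spheres, and where in the transcript each probe set lies was not analysed here. With the brightest probe set the change differed between the comparisons by -0.79 ± 0.17 (adjusted p = 0.0054), the second probe set gave 0.20 ± 0.18 (adjusted p = 0.46), and the third gave -2.02 ± 0.20 (adjusted p = 6.8e-05).

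FBXL14, which brings Snail to the proteasome, stood at 9.31 and 8.78 in parental cells, 8.35 and 8.39 in spheres, 9.53 and 9.49 in vector cells, and 9.13 and 9.14 on the arrays labelled Snail. The spheres were lowest and the vector cells highest, with the arrays labelled Snail inside the parental range. It fell in spheres by 0.68 ± 0.17 log2 (adjusted p = 0.011), and the call was lost without sphere array 1 (-0.66, adjusted p = 0.063). The value was -0.41 without parental array 1 (adjusted p = 0.041) and -0.95 without parental array 2. Both dimmer probe sets, which lay below every array's median on average, gave -0.80 and -0.84. In SW480 the change of -0.37 ± 0.17 did not pass (adjusted p = 0.17), although the arrays did not overlap, and the dimmer probe sets gave 0.17 and 0.30; with SW480 fitted alone it passed (adjusted p = 0.047). The difference between the comparisons, -0.30 ± 0.24, did not pass (adjusted p = 0.39), but did with the mean of the probe sets (-0.80, adjusted p = 0.021) and without parental array 2 (-0.57, adjusted p = 0.032), and was -0.035 without parental array 1.

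BTRC, the receptor that recognises phosphorylated Snail, read 6.59 and 6.77 in parental cells, 6.86 and 6.95 in spheres, 6.78 and 6.81 in vector cells, and 7.07 and 7.14 on the arrays labelled Snail. The groups did not overlap between neighbours, yet all 8 values lay close together. Neither change passed: 0.23 ± 0.12 log2 in spheres (adjusted p = 0.21; 95% interval -0.05 to 0.50) and 0.31 ± 0.12 in SW480 (adjusted p = 0.12; 95% interval 0.04 to 0.59). A second probe set of nearly equal brightness, with a mean of 6.78 against 6.87, gave -0.23 and -0.10, so the sign of the BTRC changes depends on which is read. Of the 3 dimmer probe sets 1 passed in spheres, higher by 0.38 ± 0.13 (adjusted p = 0.048), and the others gave -0.22 and -0.096. The value of the brightest in spheres was 0.14 without parental array 1.

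**Figure D3:**
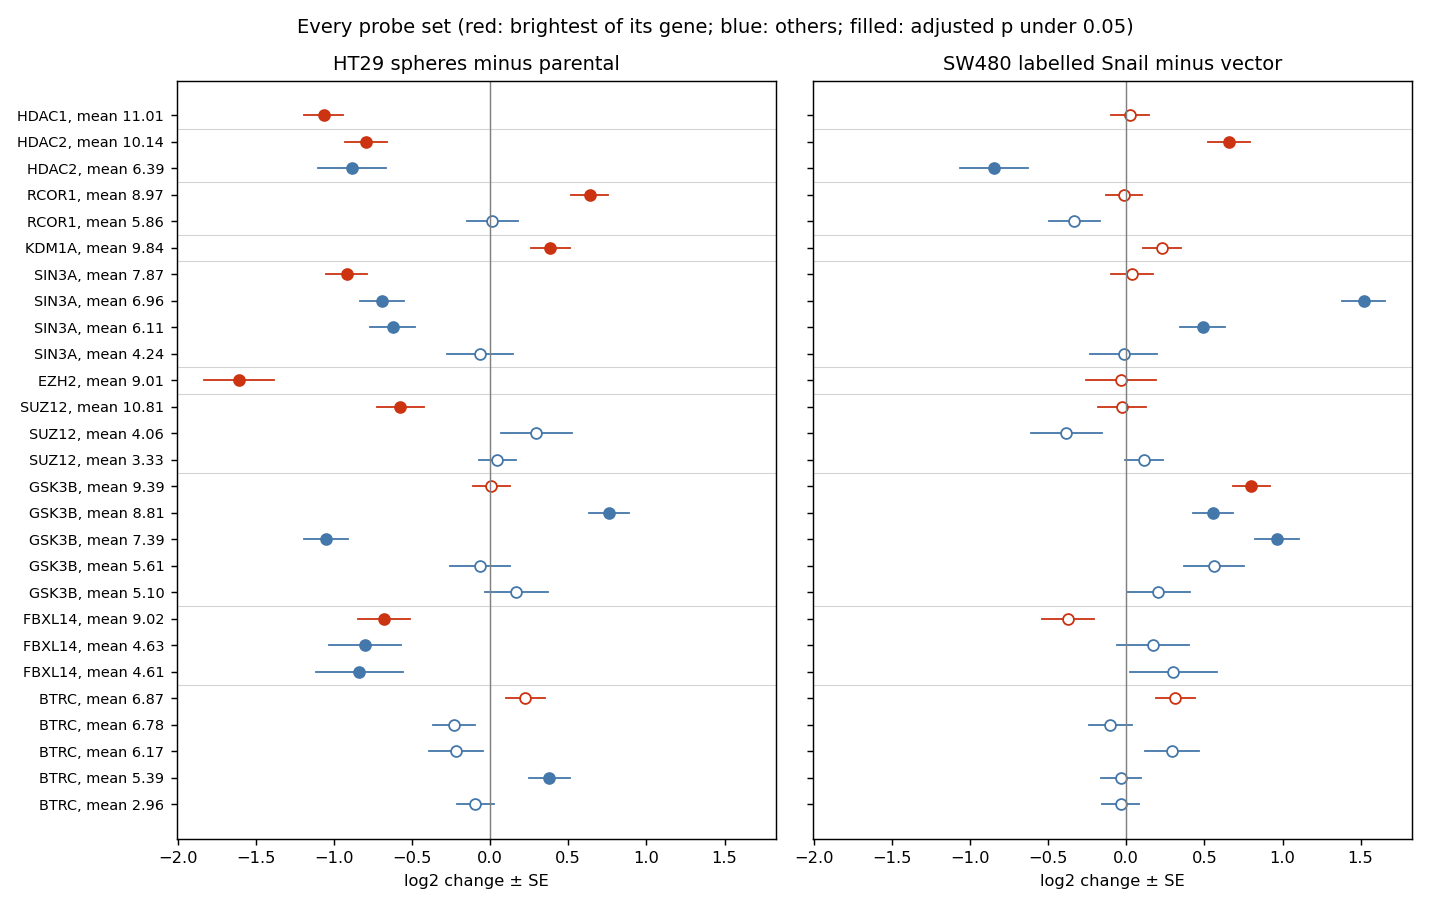
Log2 change ± SE (horizontal axis) of each of the 27 probe sets of the 10 genes, listed by gene with the mean level over 8 arrays, in HT29 spheres (left) and SW480 cells labelled Snail (right); red marks the brightest probe set of a gene, blue the others, and filled points passed at an adjusted p under 0.05. The probe sets of GSK3B spread from -1.05 to 0.76 in spheres but all lie above 0 in SW480, where those of HDAC2 lie on both sides of 0.

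Other enzymes that act on Snail were mixed. Of 16 kinases and phosphatases 4 rose in spheres, 5 fell and 7 did not pass, beside 12.4% higher and 19.0% lower over all genes. LATS2, a Hippo pathway kinase, rose by 1.20 ± 0.14 (adjusted p = 9.8e-05), with 3 dimmer probe sets from 0.70 to 1.31, and CTDSPL, a small phosphatase, fell by 1.56 ± 0.13, with 4 dimmer probe sets from -1.09 to 0.15. In SW480 2 rose, 2 fell and 12 did not pass; CSNK1E, a casein kinase 1 isoform, rose by 1.04 ± 0.12 (adjusted p = 0.00049) and CTDSP2, a relative of CTDSPL, rose by 0.51 ± 0.12 there, with its other probe set at 0.48. In spheres the probe sets of CTDSP2 disagreed, at -0.34 ± 0.12 (adjusted p = 0.049) and 0.995.

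Of 13 ubiquitin ligase genes 1 rose in spheres, the scaffold CUL1 of the ligases that hold BTRC and FBXL14 (0.43 ± 0.13, adjusted p = 0.034), and 12 did not pass. In SW480 2 rose, 1 fell and 10 did not pass, MDM2, known best as the ligase of p53, rising by 1.78 ± 0.15 (adjusted p = 8.6e-05), with 9 dimmer probe sets from -0.26 to 1.32, and CUL1 rising by 0.53 ± 0.13. The other probe set of CUL1 gave 0.85 in spheres and -0.12 in SW480. Among 14 deubiquitinases and stabilisers 1 rose in spheres, TNFAIP3, an NF-kB feedback gene (1.54 ± 0.15), and 2 fell, USP1 (-1.20 ± 0.16) and EIF3H (-0.43 ± 0.12). In SW480 the 2 that passed both rose, EIF3H (0.55 ± 0.12) and USP9X (0.50 ± 0.15, adjusted p = 0.043), but the other probe set of EIF3H gave -0.98 and the 3 others of USP9X ran from -0.53 to 0.50. Over the 97 measured genes of the 8 regulator lists, without the proliferation list, 28 fell and 7 rose in spheres with a median of -0.18 log2, and 8 fell and 11 rose in SW480 with a median of 0.10, against medians over all genes of 0.04 and 0.01. The shares of all genes were 19.0% lower and 12.4% higher in spheres and 7.34% lower and 8.91% higher in SW480, and the SW480 counts were near them.

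**Figure D4:**
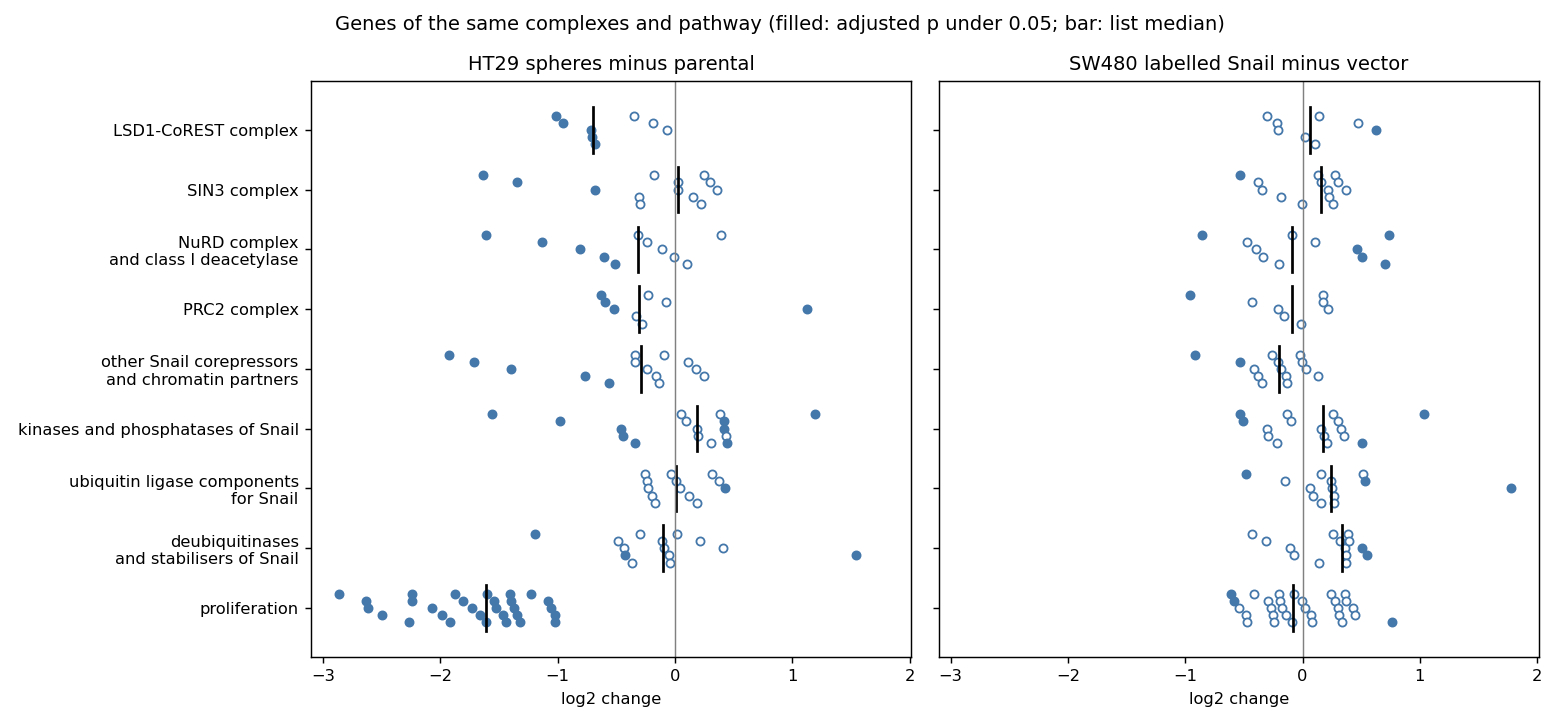
Log2 changes (horizontal axis) of the measured genes of 8 regulator lists and of the proliferation list (rows), 1 point a gene, in HT29 spheres (left) and SW480 cells labelled Snail (right); filled points passed at an adjusted p under 0.05 and black bars are list medians. In spheres the proliferation genes all lie below -1 and the LSD1-CoREST genes all below 0, while in SW480 the list medians lie between -0.20 and 0.34.

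With the brightest probe sets, the changes of 6 members differed between the comparisons at an adjusted p under 0.05: HDAC1, HDAC2, SIN3A, EZH2 and GSK3B were more negative in spheres than in SW480, and RCOR1 more positive. Over all genes 27.5% passed this test, 16.9% more negative in spheres and 10.6% more positive. Without the dimmest 40% of genes 5323 passed, against 5446 of all genes, so this share too was higher among brighter genes. For KDM1A, SUZ12, FBXL14 and BTRC the difference did not pass, apart from the settings given above for SUZ12 and FBXL14. This does not show that they changed alike.

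The control groups of the lines also differed. Between vector SW480 and parental HT29 cells 7 of 10 members passed, 6 lower and 1 higher in SW480, where 46.1% of all genes passed, 23.5% lower and 22.6% higher. Without the dimmest 40% of genes, which held no member, 7712 genes passed, against 9116 of all genes. The share among brighter genes was thus above 46.1%, and the count of 7 is given as a description. GSK3B was 2.79-fold lower (-1.48 ± 0.12 log2, adjusted p = 3.0e-06), HDAC1 2.34-fold and HDAC2 1.93-fold lower, and KDM1A, SIN3A and SUZ12 changed by -0.56, -0.45 and -0.48 log2. The HDAC2 call was lost with the mean of its probe sets (-0.40, adjusted p = 0.059), and those of SIN3A (-0.28) and SUZ12 (-0.39) after quantile normalisation. FBXL14 was the one that was higher (0.46 ± 0.17, adjusted p = 0.043), but its dimmer probe sets gave -0.98 and -0.96, and averaging its 3 probe sets turned the value to -0.49 (adjusted p = 0.023). The SIN3A call was lost without parental array 2 (-0.37) or vector array 2 (-0.41), that of SUZ12 without parental array 1 (-0.28), vector array 1 (-0.55) or vector array 2 (-0.40), and that of FBXL14 without parental array 2 (0.20), vector array 1 (0.44) or vector array 2 (0.49). Without vector array 2 the count of members past the threshold was 4. These groups differ in cell line, in the vector and in the medium as the labels name it, which cannot be told apart, and they share their arrays with the comparisons above. CDH1 was 10.4-fold lower in vector SW480 than in parental HT29 cells.

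The gene whose profile over the 8 arrays was most like each member is given as a description, since the arrays fall into 4 groups and many genes reach a high correlation: 226 genes correlated with EZH2 at over 0.95, and 10 with BTRC. The nearest to HDAC1 was ADAMTS6 (Pearson r = 0.995), to HDAC2 ECHDC1 (0.995), to RCOR1 SCO2 (0.989), to KDM1A LEMD1 (0.995) and to SIN3A BRD8 (0.996). For EZH2 it was HNRNPU (0.992), for SUZ12 RCC2 (0.985), for GSK3B RETSAT (0.996), for FBXL14 CSTF2 (0.994) and for BTRC LINC00184 (0.979).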

How the data were processed

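For every probe set the deposited table holds a log2 value on each of 8 arrays. The submitters' processing notes name RMA. Its version, and which arrays were normalised jointly, were not given in the sources used here. Detection against background was not analysed here, so a low value does not say whether a gene was present. The number of arrays limits the precision. Probe sets were named through GEO's platform annotation: 41091 named 1 gene, 1801 several and 11721 none, beside 62 controls. Each gene was its brightest probe set. Entrez identifiers of 19735 genes matched RefSeq (GRCh38.p14) and 0 symbols changed.

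With 1 coefficient for each of the 4 groups, all 8 arrays entered 1 fit in limma 3.58.1 in R 4.3.3 (4 residual and 6.10 prior degrees of freedom), two-sided, with Benjamini-Hochberg adjustment over 19775 genes and a threshold of 0.05. An exact permutation test of 2 arrays against 2 cannot give p under 0.333 and was not used. The fit was tested on simulated data for spheres against parental cells. Of 100 genes given a change of 1 log2 it recovered 70%, with 5 false calls. At 2 log2 it recovered 96%. The simulation changed 100 of 19775 genes, while 6200 were called in the real comparison. The adjustment therefore set a different cut, and these shares do not give the recovery of the real test. A change that did not pass may still be a missed one. Named were all 10 members, SNAI1 and CDH1, and from each list the 2 genes with the lowest adjusted p per comparison. Other probe sets, normalisations, filters, weights, variance models, a replicate block and leaving out each array were alternatives. Members and lists were chosen with earlier results of these data known. Promoters were searched with Python 3.11.15.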

Additional observations from a re-analysis of the deposited data

Results flagged for a closer look

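A test of the difference between the changes in the 2 comparisons, spheres minus parental cells in HT29 less labelled Snail minus vector in SW480, singled out 6 members (limma, adjusted over all genes). The differences were -1.09 log2 for HDAC1, -1.45 for HDAC2, 0.65 for RCOR1, -0.95 for SIN3A, -1.57 for EZH2 and -0.79 for GSK3B. Cell line and manipulation cannot be told apart here. With the brightest probe sets the 2 changes of HDAC2 had opposite signs and each passed by itself. With the second probe set of GSK3B the difference was 0.20 (adjusted p = 0.46) and with the third -2.02 (adjusted p = 6.8e-05), and that of HDAC2 with its dimmer probe set was -0.04 (adjusted p = 0.95). Groups of 2 arrays were too small to look for single arrays that stand apart.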

How the results depend on the processing

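Of 500 values of single members under alternatives, other probe sets apart, 447 kept their direction and their side of the threshold, 26 lost the call, 7 gained it and 20 changed sign. Of 48 further values, from other probe sets, 20 changed sign. With 2 arrays a group, leaving out 1 leaves a lone array that is assumed to vary like the others, so a lost call there does not by itself show a weaker change. The counts past the threshold, leaving out 1 array at a time, ran from 5 to 8 in spheres (main 8), from 1 to 2 in SW480 (main 2) and from 4 to 6 between the control groups (main 7). The labels' replicate numbers share only a number: deviations of same-numbered arrays correlated at 0.03 in HT29 and -0.03 in SW480, and the replicate block left 8, 2, 6 and 7 members past the threshold in spheres, SW480, the difference and the control groups, with 6081 genes in all called in spheres against 6200.

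Calls gained were those of SIN3A in SW480 with the mean of probe sets (0.51), FBXL14 in SW480 with that line fitted alone (-0.37), RCOR1 between control groups after quantile normalisation (0.40), and SUZ12 and FBXL14 in the difference, as given above. Sign changes were as follows, and their cause was not tested. With the mean of all probe sets HDAC2 and FBXL14 in SW480 gave -0.10 and 0.032, GSK3B in spheres -0.037, SUZ12 0.021 in the difference and 0.029 between control groups, and FBXL14 and BTRC between control groups -0.49 and -0.11. After quantile normalisation HDAC1 in SW480 gave -0.0088 and BTRC in the difference 0.0027, or 0.052 with arrays centred on the median. Without 1 array, values ran from -0.041 to 0.090 for HDAC1, -0.033 to 0.0036 for RCOR1, -0.024 to 0.094 for SIN3A and -0.10 to 0.045 for SUZ12 in SW480, from -0.0057 to 0.017 for GSK3B in spheres, from -0.18 to 0.0021 for BTRC in the difference, and from -0.33 to 0.45 for EZH2 between control groups.

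Where a gene had several other probe sets only the lowest and highest change were taken, and those that turned the sign are given here. In spheres they gave 0.044 and 0.29 for SUZ12, -1.05 for GSK3B and -0.23 for BTRC. In SW480 they gave -0.85 for HDAC2, -0.017 for SIN3A, 0.11 for SUZ12, 0.17 and 0.30 for FBXL14 and -0.10 for BTRC. In the difference between the comparisons they gave 0.68 for SUZ12, 0.20 for GSK3B and 0.41 for BTRC, and between control groups 0.14 for HDAC2, 0.74 for SUZ12, 0.13 for GSK3B, -0.98 and -0.96 for FBXL14, and -0.51 and -0.026 for BTRC.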
